A study of Mus musculus with 6 samples.

Results

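Polycomb and DNA methylation genes encode proteins that keep other genes silent, and some of those proteins can hold MHC class I genes, which display peptides to T cells, at a low level in small cell lung cancer (SCLC). The 10 genes described here are Ezh2, Ezh1, Eed, Suz12, Dnmt1, Dnmt3a, Dnmt3b, Uhrf1, Kdm1a and Tet1. They were taken by symbol from the deposited expression table, in which they make up 10 of 20273 rows. RNA of murine SCLC cells was sequenced in bulk from 6 libraries, 3 of the parental genotype (WT) and 3 after knock-out of Erbb2 (ERBB2 KO), a receptor tyrosine kinase gene, to ask how the antigen presentation genes differ without the receptor. Both groups were of lung origin, labelled epithelial, and grown in RPMI medium with serum and antibiotics. The study took its murine SCLC lines from a mouse model with conditional deletion of Rb1 and Trp53, so WT names the Erbb2 state only. The ERBB2 KO cells were transfected with a commercial Cas9 construct, selected with puromycin and sorted as single clones, and the labels do not say whether the WT cells were transfected or selected too. The position of the edit and the number of clones behind the 3 ERBB2 KO libraries are not given in the sources used here, so the effect of the knock-out and that of cloning or selection cannot be told apart.

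Polycomb repressive complex 2 (PRC2) places methyl groups on lysine 27 of histone H3. Its catalytic subunit is Ezh2 in dividing cells and more often Ezh1 in resting cells, and neither works without Suz12 and Eed. DNA methylation is copied after replication by Dnmt1, which Uhrf1 brings to newly made DNA, while Dnmt3a and Dnmt3b set it on unmethylated sites. Kdm1a (LSD1) removes methyl groups from lysine 4 of histone H3, and Tet1 oxidises methylated cytosine as a step of its removal. The 10 genes are thus not all enzymes, since Suz12 and Eed are structural or reading subunits, and not all of them write marks, since Kdm1a and Tet1 remove them.

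Ezh2, Dnmt1 and Uhrf1 are known as genes transcribed with the S phase programme, so the DNA around the starts of the member genes was searched for the letters that E2F factors are known to bind. In the RefSeq annotation of GRCm38.p6, the assembly also called mm10, the 10 genes have 15 start windows that run from 250 bases before to 50 bases after a start. An E2F motif (TTTCCCGC, TTTCGCGC, TTTGCCGC or TTTGGCGC, on either strand) was found in 4 of the 15 windows, 26.7%, against 2.27% of all 32851 windows of the same length. The box bound by NF-Y (CCAAT, on either strand) was found in 8 of the 15, 53.3%, against 37.4% of all windows. The cell cycle element CHR (TTTGAA or TTCGAA, on either strand) was found in 4 of the 15, 26.7%, against 19.2%. The 4 windows with an E2F motif and the window of Eed, which has none and is shown for contrast with its PRC2 partners, are printed from 5′ to 3′ on the strand of the gene, with E2F motifs and CCAAT boxes in capitals; where both strands of a CCAAT box overlap they form 1 run of capitals. The windows are chr6:47594981-47595280 (Ezh2, minus strand), chr11:79992856-79993155 (Suz12, plus), chr9:20952574-20952873 (the third start of Dnmt1, minus), chr17:56304063-56304362 (the second start of Uhrf1, plus) and chr7:89980927-89981226 (Eed, minus).
Ezh2: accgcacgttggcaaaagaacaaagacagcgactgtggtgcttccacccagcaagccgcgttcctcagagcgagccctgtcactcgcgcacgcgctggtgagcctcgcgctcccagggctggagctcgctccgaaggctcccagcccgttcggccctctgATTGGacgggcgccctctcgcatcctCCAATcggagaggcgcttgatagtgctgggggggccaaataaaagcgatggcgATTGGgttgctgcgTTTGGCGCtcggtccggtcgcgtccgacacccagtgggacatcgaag
Suz12: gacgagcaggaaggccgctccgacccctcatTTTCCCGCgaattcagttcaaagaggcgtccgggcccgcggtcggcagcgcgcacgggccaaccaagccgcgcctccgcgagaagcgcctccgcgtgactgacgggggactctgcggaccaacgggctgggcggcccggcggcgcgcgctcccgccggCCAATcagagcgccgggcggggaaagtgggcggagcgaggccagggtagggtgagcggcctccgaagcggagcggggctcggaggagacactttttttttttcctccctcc
Dnmt1: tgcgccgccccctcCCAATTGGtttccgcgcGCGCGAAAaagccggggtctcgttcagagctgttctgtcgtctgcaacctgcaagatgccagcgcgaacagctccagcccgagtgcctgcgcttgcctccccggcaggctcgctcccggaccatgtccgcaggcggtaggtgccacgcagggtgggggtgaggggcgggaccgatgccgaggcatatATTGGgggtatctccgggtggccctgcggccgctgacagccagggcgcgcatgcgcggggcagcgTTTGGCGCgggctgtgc
Uhrf1: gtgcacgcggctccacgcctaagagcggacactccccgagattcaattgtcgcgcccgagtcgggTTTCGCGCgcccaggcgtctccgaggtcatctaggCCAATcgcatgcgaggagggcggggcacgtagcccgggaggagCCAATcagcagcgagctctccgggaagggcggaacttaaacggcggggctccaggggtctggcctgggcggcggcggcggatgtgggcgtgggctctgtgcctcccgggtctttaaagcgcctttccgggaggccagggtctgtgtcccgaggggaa
Eed: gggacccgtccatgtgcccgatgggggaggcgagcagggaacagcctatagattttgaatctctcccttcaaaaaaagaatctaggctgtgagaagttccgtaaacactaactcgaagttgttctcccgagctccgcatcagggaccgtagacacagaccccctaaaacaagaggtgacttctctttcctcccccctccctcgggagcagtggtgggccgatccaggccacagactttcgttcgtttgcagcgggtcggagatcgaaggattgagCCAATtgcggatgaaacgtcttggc
Counted from the start at +1, the E2F motif lay at +4 in Ezh2 and at -219 in Suz12. Dnmt1 held 2 of them, at -219 on the opposite strand and at +34, and Uhrf1 held 1, at -185. No match was found in the windows of Ezh1, Eed, Dnmt3a, Dnmt3b, Kdm1a or Tet1, nor in the other starts of Dnmt1 and Uhrf1. CpG dinucleotides, the sites that the DNA methyltransferases modify, numbered 31 in the Ezh2 window, 41 in Suz12, 33 in each of the printed windows of Dnmt1 and Uhrf1 and 17 in Eed, against a median of 7 over all windows. Every E2F motif searched for holds a CpG, and the share over all windows was not matched for CpG number. Windows of 1 gene are not independent. These are descriptions of the letters, and no binding or methylation was measured.

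The libraries held between 8927461 (ERBB2 KO 1) and 13255671 reads (WT 3), recovered from the deposited log2 CPM (reads per gene scaled to library size), and 3 reads corresponded to between 0.226 and 0.336 CPM. Erbb2 itself was at 10.7, 3.95 and 6.64 CPM in WT 1, 2 and 3 and at 12.1, 6.19 and 2.80 CPM in ERBB2 KO 1, 2 and 3, so its transcript did not separate the groups; where an edit leaves the transcript in place, its level checks nothing. Of the epithelial markers, Krt8 and Krt18 were high in every library, while Cdh1 was below 1 CPM in all libraries but WT 3, where it was at 10.0 CPM, and Cldn4 was below 1 CPM in all 6. Krt19 ranged from 17.2 to 253 CPM except in ERBB2 KO 1, which had 0.112 CPM. Among the 4 of 9 neuroendocrine markers that could be examined, Ncam1 made up nearly all of the sum (between 277 and 1253 CPM across WT and between 122 and 353 CPM across ERBB2 KO), and Syp, Chgb and Dll3 were below 1 CPM. The 4 fibroblast markers examined summed to 42.6 to 228.5 CPM across WT and 7.72 to 299 CPM across ERBB2 KO, highest in ERBB2 KO 1 and WT 3. In ERBB2 KO 1 the sum came mostly from Dcn (267 CPM), with Col1a2 at 0.896 CPM. In WT 3 it came mostly from Col1a2 (200 CPM), with Dcn at 22.3 CPM, so the markers did not rise together. The immune and endothelial markers summed to at most 22.2 and 0.935 CPM. The X-inactivation transcript Xist was at 208 and 178 CPM in WT 2 and WT 3 and at 0.112 CPM or less in the other 4 libraries, so the WT libraries did not form a single kind. No ERBB2 KO library was of the kind with Xist. A difference between the groups thus cannot be fully told apart from one between these kinds of library. Differences of the tested members, though not of the genes in the other lists, are therefore also given against WT 1 alone, a comparison chosen after the data were seen.

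Of the 10 genes, 9 passed the filter of at least 1 CPM in at least 3 libraries, and each of these 9 was above 1 CPM in all 6. Under limma on log2(CPM + 1), with p-values adjusted over all 11803 genes tested, 0 of the 9 had an adjusted p below 0.05, as did 0 genes in the whole table (0%), with voom on the recovered reads as well. Leaving out WT 1 gave 146 genes and leaving out ERBB2 KO 1 gave 30, with 0 members among them. Ezh2 and Eed were lower in ERBB2 KO with an unadjusted p below 0.05, 2 of 9 members, while 13.2% of all genes passed that mark in either direction, 5.96% higher and 7.27% lower in ERBB2 KO. Those shares rested on single libraries, at 5.24% in total without WT 2 (1 member), 6.85% without WT 3 (1 member) and 21% without WT 1 (2 members). The groups did not overlap for 4 of the 9, Ezh1 and Uhrf1 higher and Ezh2 and Eed lower in ERBB2 KO, against 19.4% of all genes tested, 8.76% higher and 10.6% lower. The median difference of the 9 was -0.15 on the log2 scale, beside -0.04 over all genes. With bulk RNA, fewer cells of a kind and less RNA per cell cannot be told apart.

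**Figure D1:**
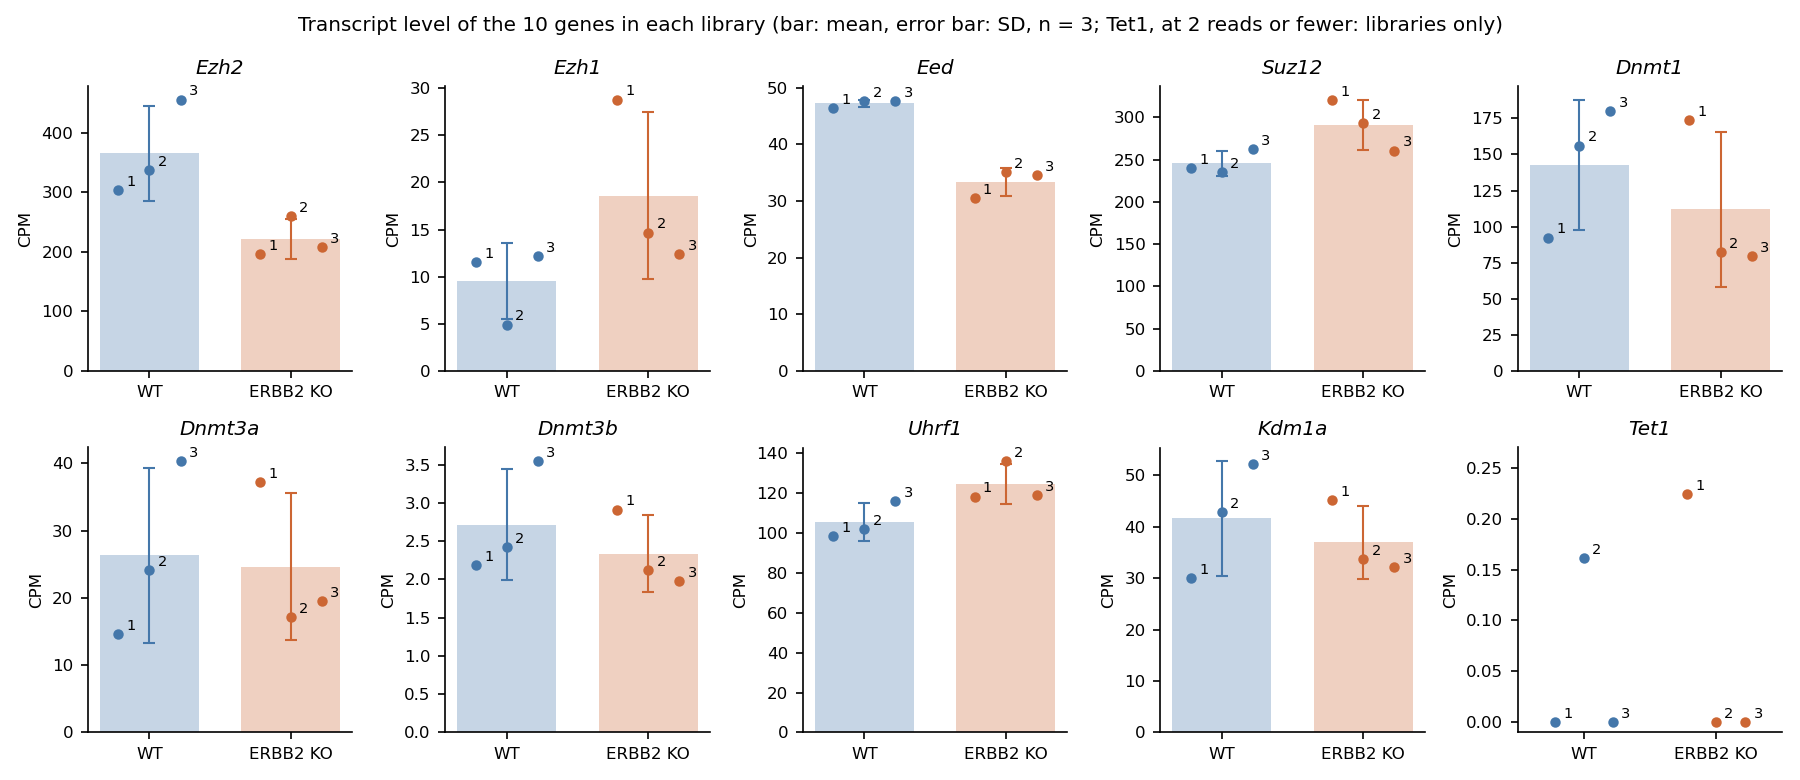
Level of each of the 10 genes in CPM, with 1 point per library (numbered 1 to 3), bars for the group means and error bars for the SD (n = 3); Tet1 is drawn without bars. The 3 ERBB2 KO points lie below all WT points for Ezh2 and Eed and above them for Ezh1 and Uhrf1, while the groups overlap for the other members.

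The estimates for the catalytic subunits of PRC2 had opposite signs, and neither passed the adjusted threshold. Ezh2, on chromosome 6 (47530274 to 47595270), had 304, 337 and 456 CPM in WT 1, 2 and 3, against 197, 261 and 208 CPM in ERBB2 KO 1, 2 and 3. Every ERBB2 KO library was below every WT library, and WT 3 stood highest. The means were 366 ± 79.9 and 222 ± 33.8 CPM (SD, n = 3 each), the ERBB2 KO mean being 60.7% of the WT mean. The difference on the log2(CPM + 1) scale was -0.71 (SE 0.21, 95% interval -1.20 to -0.22), with an unadjusted p of 0.0112 and an adjusted p of 0.336 in limma. Among the 11803 genes tested, Ezh2 ranked 391 by p. When libraries were weighted by their fit to the rest (array quality weights), the difference was -0.85 with an adjusted p of 0.0273, in a fit that called 14.9% of all genes. Against WT 1 alone the difference was -0.46, and WT 1 was the WT library nearest to the ERBB2 KO values.

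Ezh1, on chromosome 11 (101191115 to 101226463), was much less abundant, at 11.6, 4.91 and 12.2 in the WT libraries against 28.8, 14.7 and 12.4 CPM in the ERBB2 KO libraries, with 61 to 257 reads per library. The groups did not overlap, but ERBB2 KO 3 exceeded WT 3 by a factor of only 1.01. Its range over the libraries was the widest of the 9 genes, with a 5.86-fold span from WT 2 to ERBB2 KO 1. The means were 9.57 ± 4.04 and 18.6 ± 8.89 CPM (SD, n = 3 each) and the limma difference was 0.89 (SE 0.44, 95% interval -0.13 to 1.91, adjusted p = 0.416). Against WT 1 alone it was 0.55.

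Both genes entered the balance of the catalytic subunits, the log2(CPM + 1) of Ezh2 minus that of Ezh1 within a library. It was 4.60, 5.84 and 5.11 in WT and 2.73, 4.06 and 3.97 in ERBB2 KO, with every ERBB2 KO library below every WT library. The group means were 5.18 ± 0.62 and 3.59 ± 0.74 (SD, n = 3 each), a difference of -1.60. A two-sided exact permutation test gave p = 0.1, the smallest that 3 against 3 libraries can give, and 0.4 after adjustment over the 4 balances tested. Since the balance was built from both genes, it is no evidence beyond their own values. Ezh2 stayed the more abundant transcript in all libraries, and per kilobase of its annotated transcript its mean level was 118 (WT) and 71.8 CPM (ERBB2 KO), where that of Ezh1 was 2.26 and 4.39 CPM. The labels and the methods name different library kits, and levels per kilobase hold only if reads covered whole transcripts.

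Eed, the subunit that binds methylated lysine 27 and stimulates the enzyme, lies on chromosome 7 (89954654 to 89980976). It was at 46.4, 47.6 and 47.6 in the WT libraries against 30.5, 35.0 and 34.6 CPM in the ERBB2 KO libraries. The 3 WT libraries were closely alike and all above the ERBB2 KO libraries, with the lowest WT value 1.33 times the highest ERBB2 KO value. The means were 47.2 ± 0.678 and 33.4 ± 2.51 CPM (SD, n = 3 each), the latter 70.7% of the former. The limma difference was -0.49 (SE 0.17, 95% interval -0.90 to -0.09), with an unadjusted p of 0.0239 and an adjusted p of 0.350. It was -0.47 against WT 1 alone, so the choice of WT libraries hardly moved it.

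Suz12, the scaffold that holds PRC2 together, lies on chromosome 11 (79993106 to 80034123) and had an estimate of the opposite sign to those of Ezh2 and Eed. It was at 240, 235 and 262 in the WT libraries against 320, 293 and 260 CPM in the ERBB2 KO libraries, where ERBB2 KO 3 fell just under WT 3 and the groups overlapped. Its span over the libraries was the narrowest of the 9, 1.36-fold. The limma difference was 0.24 (SE 0.16, 95% interval -0.12 to 0.61, adjusted p = 0.508). Against WT 1 alone it was 0.28. The estimates of Ezh2 and Eed thus lay below 0 and those of Ezh1 and Suz12 above 0, the intervals of the latter pair included 0, and none of the 4 passed the adjusted threshold.

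**Figure D2:**
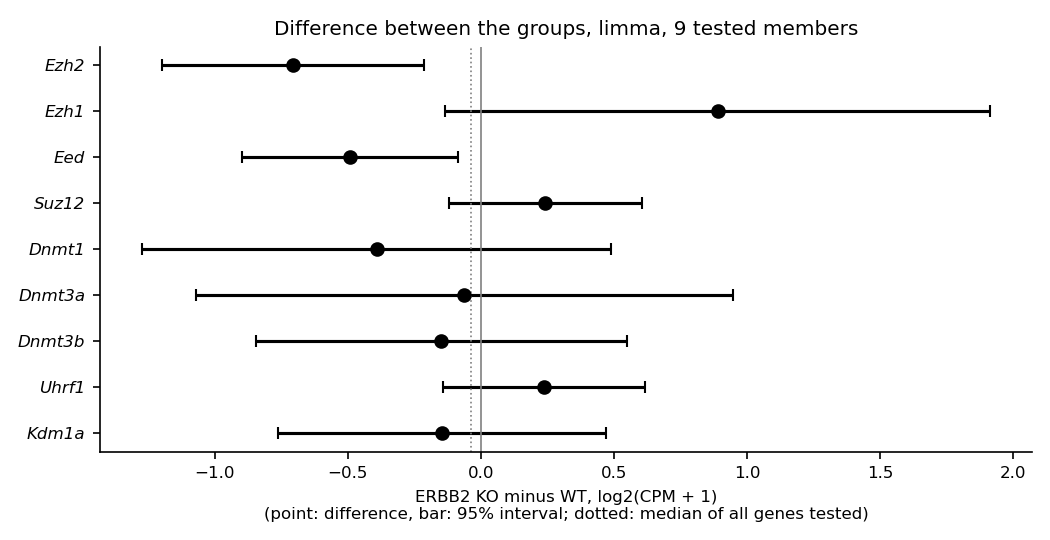
Difference between the groups, as log2(CPM + 1) in ERBB2 KO minus that in WT, for the 9 genes tested, with points for the limma estimate and bars for its 95% interval; the solid line marks 0 and the dotted line the median of all genes tested (-0.04). The intervals of Ezh2 and Eed lie below 0 before adjustment, and those of the other 7 include it.

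Dnmt1, the maintenance methyltransferase on chromosome 9 (20907206 to 20959888), was at 92.4, 156 and 180 in the WT libraries against 174, 82.5 and 79.5 CPM in the ERBB2 KO libraries. The libraries fell into a high set of WT 3, ERBB2 KO 1 and WT 2 and a low set of WT 1, ERBB2 KO 2 and ERBB2 KO 3, with 1.69-fold between the nearest values of the sets, so the groups overlapped. The means were 143 ± 45.2 and 112 ± 53.6 CPM (SD, n = 3 each), and the limma difference was -0.39 (SE 0.37, 95% interval -1.27 to 0.49, adjusted p = 0.654). Its sign depended on the WT libraries used, since against WT 1 alone the difference was 0.18, whereas array quality weights, which gave WT 1 and ERBB2 KO 1 the least weight, put it at -0.93 with an adjusted p of 0.0395.

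Uhrf1, the partner that recruits Dnmt1 and reads half-methylated DNA, lies on chromosome 17 (56303337 to 56323486). It was at 98.4, 102 and 116 in the WT libraries against 118, 136 and 119 CPM in the ERBB2 KO libraries. The groups did not overlap, but the lowest ERBB2 KO value was only 1.02 times the highest WT value. The means were 106 ± 9.38 and 125 ± 10.1 CPM (SD, n = 3 each), with a limma difference of 0.24 (SE 0.16, 95% interval -0.14 to 0.62, adjusted p = 0.531). Against WT 1 alone the difference was 0.33. Uhrf1 did not show the high and low sets of Dnmt1.

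Of the de novo methyltransferases, Dnmt3b had the library order of Dnmt1, and Dnmt3a shared its 3 highest libraries. Dnmt3a, on chromosome 12 (3801559 to 3914443), was at 14.7, 24.1 and 40.4 in the WT libraries against 37.2, 17.2 and 19.5 CPM in the ERBB2 KO libraries. Dnmt3b, on chromosome 2 (153649411 to 153687730), was near the lower end of detection, at 2.19, 2.42 and 3.55 in the WT libraries against 2.91, 2.12 and 1.97 CPM in the ERBB2 KO libraries, which came from 19 to 47 reads. In both genes WT 3, ERBB2 KO 1 and WT 2 were the 3 highest libraries, and the groups overlapped. The limma difference was -0.06 for Dnmt3a (SE 0.43, 95% interval -1.07 to 0.95, adjusted p = 0.958). It was -0.15 for Dnmt3b (SE 0.30, 95% interval -0.85 to 0.55, adjusted p = 0.848). The interval of Dnmt3a spans about 1 log2 unit either way, so smaller differences were not detectable at this spread. Against WT 1 alone both differences were above 0, at 0.63 and 0.06. The log2 balance of Dnmt3a over Dnmt3b was 2.30, 2.88 and 3.19 in WT and 3.29, 2.55 and 2.79 in ERBB2 KO (difference 0.09, exact permutation p = 0.8, adjusted 0.8).

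Kdm1a, on chromosome 4 (136550533 to 136602787), was at 30.0, 42.8 and 52.1 in the WT libraries against 45.1, 33.7 and 32.2 CPM in the ERBB2 KO libraries. Again WT 3, ERBB2 KO 1 and WT 2 were highest, and the groups overlapped. The means were 41.6 ± 11.1 and 37.0 ± 7.09 CPM (SD, n = 3 each) and the limma difference was -0.15 (SE 0.26, 95% interval -0.76 to 0.47, adjusted p = 0.829), or 0.28 against WT 1 alone.

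Tet1, on chromosome 10 (62804570 to 62887469), had 2 reads in WT 2 and in ERBB2 KO 1 (0.161 and 0.224 CPM) and 0 in the other 4 libraries. All 6 values were under the level of 3 reads, which a count of 0 also allows, so no fold was computed and Tet1 was not tested. The balance of Dnmt1 over Tet1, which was among the 4 computed, therefore only restated Dnmt1 and is not read as a result.

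Among the 9 tested members, 4 thus shared WT 2, WT 3 and ERBB2 KO 1 as their 3 highest libraries: Dnmt1, Dnmt3a, Dnmt3b and Kdm1a. B2m, the light chain of MHC class I, had the same 3 libraries highest, at 155, 339 and 336 in the WT libraries against 490, 157 and 109 CPM in the ERBB2 KO libraries. The same 3 were highest for Cdkn2a, a tumour suppressor gene that Polycomb is known to silence, at 180, 267 and 352 in the WT libraries against 494, 179 and 126 CPM in the ERBB2 KO libraries; this gene was singled out after its values were seen. The order crossed the groups, so it is a description of the libraries and not a difference between the genotypes. Over all tested genes, deviations from the group mean in ERBB2 KO 1 correlated with those in WT 2 (0.15), WT 3 (0.16) and WT 1 (-0.22). The share of all genes with these 3 libraries highest was not computed, so the order is not read as a trait of the members. WT 2 and WT 3 are also the libraries with Xist, whereas ERBB2 KO 1 was at 0.112 CPM of Xist, and the part of cell line identity in the order was not tested.

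**Figure D3:**
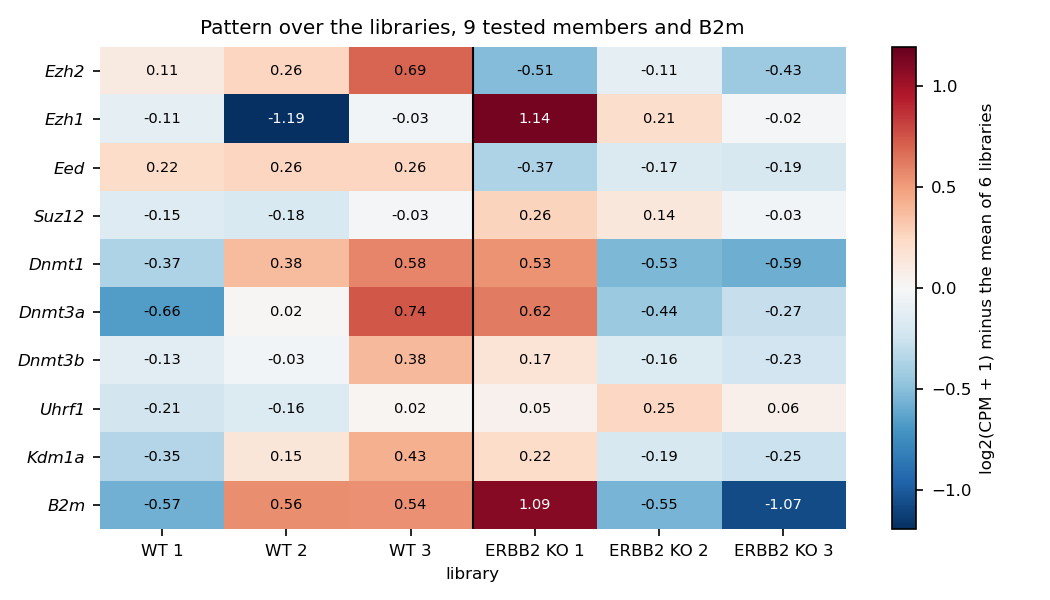
Level of the 9 tested members and B2m in each library as log2(CPM + 1) minus the mean of the gene over the 6 libraries, with red above and blue below that mean and the value printed in each cell. Ezh2 and Eed split at the line between the groups, whereas Dnmt1, Dnmt3a, Dnmt3b, Kdm1a and B2m are highest in WT 2, WT 3 and ERBB2 KO 1.

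For each member whose log2 level spanned at least 1 over the libraries, the genes with the most similar pattern were sought among all tested genes by the root mean square difference of centred log2(CPM + 1) over the 6 libraries. Ezh2 was nearest to Armc6 (0.0377), at 15.6, 17.2 and 22.2 in the WT libraries against 9.07, 12.8 and 9.97 CPM in the ERBB2 KO libraries, and then to Etfbkmt (0.0672). Among the genes close to Dnmt1 was Wdr44 (0.0634). The nearest genes lay farther from Ezh1, which were Slc38a7 (0.111) and Cep131 (0.116), and from Dnmt3a, which were Pld1 (0.0918) and Tceanc (0.139).

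Since Ezh2, Dnmt1 and Uhrf1 are expressed in S phase, their mean log2 level was also set against that of 20 genes of DNA replication in the same library. The replication genes had a mean log2(CPM + 1) of 6.33, 6.41 and 6.50 in WT and 6.19, 6.35 and 6.39 in ERBB2 KO, a difference of -0.10 (exact permutation p = 0.4). The mean of the 3 members exceeded it by 0.81, 1.05 and 1.24 in WT and by 1.14, 0.82 and 0.59 in ERBB2 KO, and the groups overlapped. The difference was -0.19 (exact permutation p = 0.5, adjusted 0.667). Of the 20 replication genes, 7 were higher and 13 lower in ERBB2 KO, with 2 higher and 1 lower at an unadjusted p below 0.05. Among all genes tested, 5.96% were higher and 7.27% lower at that mark. Cdc6, which loads the replicative helicase, was at 56.9 ± 8.30 in the WT libraries against 94.4 ± 0.985 CPM in the ERBB2 KO libraries, and the helicase subunit Mcm6 at 93.4 ± 18.8 and 135 ± 7.12 CPM, whereas the cyclin Ccne2 was at 79.5 ± 12.5 and 54.3 ± 10.7 CPM and Mcm2 at 124 ± 21.2 and 84.4 ± 31.0 CPM (SD, n = 3 each).

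**Figure D4:**
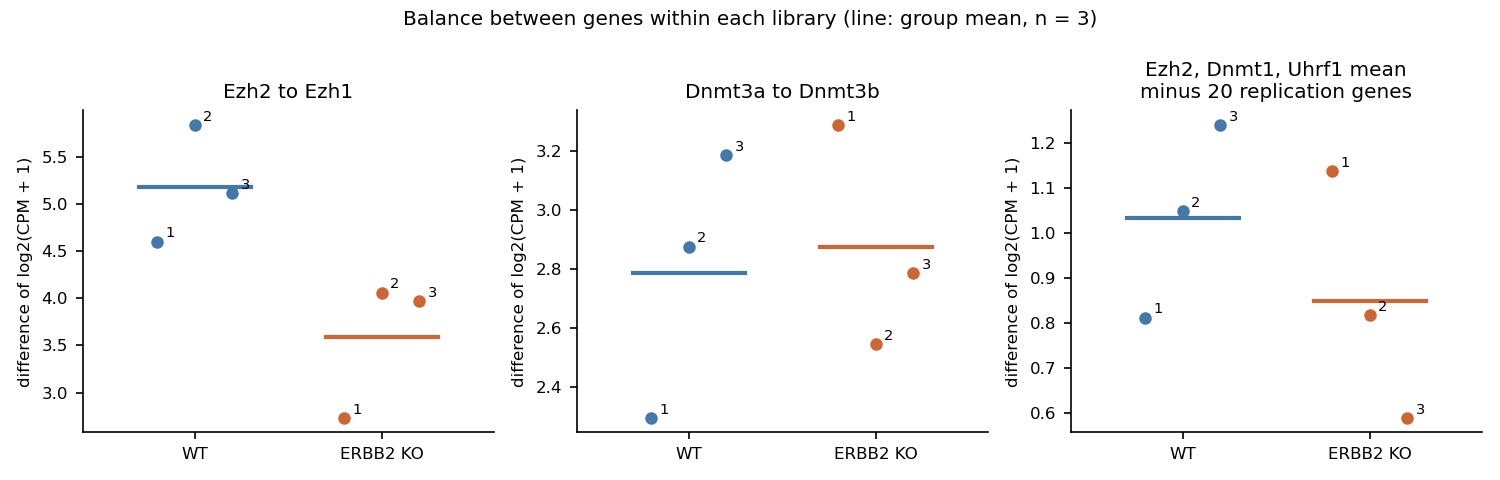
The 3 balances between measurable genes, each a difference of log2(CPM + 1) within a library, with 1 point per library (numbered 1 to 3) and lines for the group means. The balance of Ezh2 to Ezh1 lies lower in all ERBB2 KO libraries (3.59 against 5.18 on average), and the groups overlap in the other two.

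The genes that work with or against the members were read from lists chosen by function, and in none of them did a gene reach an adjusted p below 0.05. Over all genes tested, 5.96% were higher and 7.27% lower in ERBB2 KO at an unadjusted limma p below 0.05. The groups did not overlap for 19.4% of all genes. Counts in the lists below are to be read beside these shares. Of the 9 measured PRC2 partners, 4 were higher and 5 lower in ERBB2 KO (median -0.17), and 1 had an unadjusted p below 0.05. This was Epop, a PRC2 partner known to temper its activity, at 6.83, 0.806 and 2.94 in the WT libraries against 9.52, 10.9 and 15.3 CPM in the ERBB2 KO libraries, without overlap (difference 1.73, limma adjusted p = 0.340). The histone binder Rbbp7 was at 462 ± 197 and 288 ± 99.2 CPM, Aebp2 at 77.0 ± 15.7 and 59.4 ± 20.2 CPM and Phf1 at 1.92 ± 0.425 and 3.31 ± 2.28 CPM in WT and ERBB2 KO.

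Polycomb repressive complex 1 (PRC1) reads the PRC2 mark and ubiquitinates histone H2A. Of its 21 genes, 10 were higher and 11 lower in ERBB2 KO (median -0.07), with 0 higher and 3 lower at an unadjusted p below 0.05. The lower ones were Rybp, a subunit of the variant complexes, at 39.7 ± 15.5 in the WT libraries against 17.8 ± 2.40 CPM in the ERBB2 KO libraries (difference -1.04), Phc2 at 66.4 ± 8.18 and 39.7 ± 12.8 CPM (-0.76) and Pcgf3 at 57.0 ± 17.4 and 33.1 ± 1.49 CPM (-0.72). Pcgf2, a subunit of the canonical complex, stood on the other side, at 19.5 ± 8.20 and 31.6 ± 2.52 CPM (0.76). The groups did not overlap for 5 of the 21, 1 higher and 4 lower, against 19.4% of all genes tested, 8.76% higher and 10.6% lower.

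Of the 13 genes whose products oppose Polycomb, 3 were higher and 10 lower in ERBB2 KO (median -0.20), and 0 had an unadjusted p below 0.05 or groups that did not overlap. Nsd1, which methylates lysine 36 of histone H3, was at 22.2 ± 15.5 in the WT libraries against 42.6 ± 7.04 CPM in the ERBB2 KO libraries. The remodeller subunit Arid1a was at 44.5 ± 10.9 and 32.8 ± 4.72 CPM, and the lysine 4 methyltransferases Kmt2c at 27.4, 64.7 and 53.3 CPM and 37.7, 31.2 and 36.2 CPM and Kmt2d at 25.9 ± 3.97 and 21.1 ± 6.63 CPM.

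Of the partners and readers of DNA methylation, 17 of 18 were tested, with 5 higher and 12 lower in ERBB2 KO (median -0.17) and 1 in each direction at an unadjusted p below 0.05. Mbd2, which binds methylated CpG sites, was at 51.3, 61.9 and 56.4 in the WT libraries against 35.3, 30.0 and 29.7 CPM in the ERBB2 KO libraries, without overlap (difference -0.82, limma adjusted p = 0.321). Zbtb4, another reader of methylated DNA, was at 9.83, 1.05 and 4.68 in the WT libraries against 42.5, 11.3 and 12.2 CPM in the ERBB2 KO libraries, also without overlap (difference 1.93). Cdca7, a partner of the remodeller Hells, was at 53.6 ± 8.69 and 38.3 ± 3.79 CPM. Tet2, the paralogue of Tet1 with a measurable level, was at 4.32 ± 3.69 and 9.51 ± 4.08 CPM, with an SD nearly as large as the difference.

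Of the partners of Kdm1a, 11 of 15 were tested, with 2 higher and 9 lower in ERBB2 KO (median -0.15), 1 of them at an unadjusted p below 0.05. Hdac2, a histone deacetylase of the CoREST complex, was at 99.3 ± 16.8 in the WT libraries against 65.5 ± 6.74 CPM in the ERBB2 KO libraries (difference -0.58). The scaffold Rcor1 was at 72.7 ± 11.0 and 53.9 ± 8.29 CPM (-0.42). The groups did not overlap for Hdac2 or Rcor1. Hdac1, another histone deacetylase among these partners, was at 78.1 ± 10.7 and 79.7 ± 20.9 CPM (difference 0.008), with overlap. Rcor2 was at 42.1 ± 7.31 and 58.2 ± 17.3 CPM, and Kdm1b, the other lysine demethylase of the LSD family, at 11.0 ± 0.607 and 8.80 ± 0.927 CPM.

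**Figure D5:**
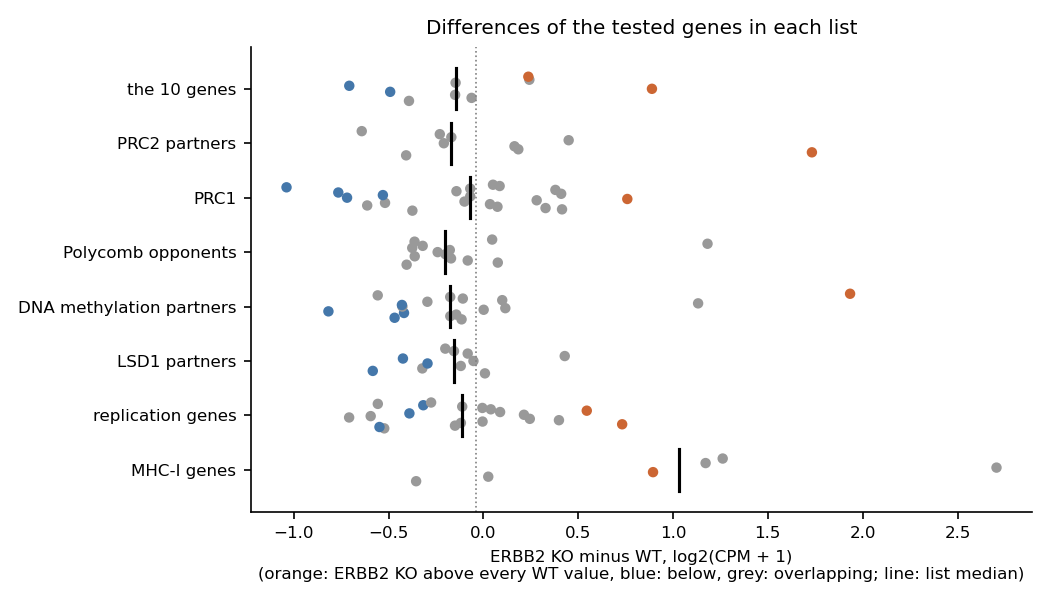
Difference between the groups (ERBB2 KO minus WT, log2(CPM + 1)) for every tested gene of the 10 members and of 7 lists, with orange for genes whose ERBB2 KO libraries all exceed the WT libraries, blue for the reverse and grey for overlap; black lines are list medians and the dotted line is the median of all genes. The medians of the members and of the regulator lists lie between -0.20 and -0.07, and that of the 6 tested MHC class I genes at 1.03.

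The genes that these regulators are known to silence were read last. MHC class I and its loading genes had 6 of 10 members tested, 5 higher and 1 lower in ERBB2 KO with a median of 1.03, and 2 higher, H2-K1 and Tapbp, at an unadjusted p below 0.05. The heavy chain H2-K1 was at 22.2, 0.564 and 7.85 in the WT libraries against 171, 30.4 and 15.5 CPM in the ERBB2 KO libraries, so that ERBB2 KO 3 lay under WT 1. The transporter Tap1 was at 3.37, 0 and 1.96 CPM and 6.83, 4.75 and 2.29 CPM, H2-D1 at 79.6, 54.5 and 73.0 CPM and 287, 89.8 and 80.4 CPM, and Tapbp at 46.5 ± 10.4 and 133 ± 94.5 CPM (SD, n = 3 each). ERBB2 KO 1, the library with the highest level of all 4, was the lowest of all for Ezh2 and Eed and among the 3 highest for Dnmt1, Dnmt3a, Dnmt3b and Kdm1a. This is a description of 1 library, and a link between the regulators and the MHC class I genes was not tested.

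Germline genes, which DNA methylation is known to hold silent in somatic cells, had 6 of 15 members measured and 1 tested. Sycp1, a protein of the synaptonemal complex of meiotic chromosomes, was at 1.55, 5.80 and 5.58 in the WT libraries against 2.24, 0 and 0 CPM in the ERBB2 KO libraries. It overlapped between the groups (limma difference -1.71, unadjusted p = 0.025). Taf7l, a germ cell transcription factor subunit, was above 1 CPM only in WT 3 (10.9 CPM) and ERBB2 KO 3 (1.14 CPM).

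Developmental Polycomb targets carry the PRC2 mark in many tissues. The list held transcription factor genes and also Cdkn2a and Cdkn2b, which are not. Of its 22 members, 14 were measured and 10 tested, with 5 higher and 5 lower in ERBB2 KO (median -0.03). Cdkn2a (-0.20) and Cdkn2b (-0.24) were among the lower, and the transcription factor genes were not summarised without them. The homeobox gene Lhx2 was at 8.56, 0 and 0 in the WT libraries against 16.2, 8.82 and 9.56 CPM in the ERBB2 KO libraries, without overlap (limma difference 2.52, unadjusted p = 0.022). Pax3 was at 10.2, 0 and 0.0754 CPM and 19.5, 4.75 and 5.30 CPM, and Gata4 at 7.28, 0 and 0 CPM and 3.14, 5.85 and 4.26 CPM. For these 3 genes the low libraries were WT 2 and WT 3, those with Xist, and WT 1 was within or near the ERBB2 KO range.

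Reads of some members could be shared with other annotated genes, because the sources used here do not say whether strand was used in counting. Kdm1a overlaps the protein-coding gene Luzp1, and Ezh2, Dnmt3a and Tet1 overlap genes for long noncoding RNAs. Dnmt1 overlaps a microRNA gene, and Dnmt3a and Dnmt3b each have an annotated pseudogene, so the levels of these genes are uncertain to that extent. Ezh1, Eed, Suz12 and Uhrf1 had no overlapping gene and no pseudogene named after them. Pseudogenes under other symbols were not searched for.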

How the data were processed

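Bulk RNA of murine SCLC cells was measured in 6 libraries, grouped by the genotype label. The authors deposited 1 table of log2 CPM with a small offset (lowest value -2.48, or 0.179 CPM); the submitters' notes name mm10, whereas the methods name Bwa and an Ensembl GRCm39 reference in a passage on mutation calling. Whether that passage covers this table is not said, and the counter and annotation are not given in the sources used here. CPM was recovered by subtracting the offset, and 100% of the values were then whole reads within 0.1 of a read. Labels name a total RNA kit and the methods a 3′ kit, which was not settled.

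limma 3.58.1 in R 4.3.3 (mean-variance trend, group only) was fitted on log2(CPM + 1) for genes that reached 1 CPM in 3 or more libraries, two-sided, with Benjamini-Hochberg adjustment over 11803 genes and a threshold of 0.05; 14 rows whose symbols had turned into dates were left out. Fold changes on this scale are understated for low genes. The fit was tested on simulated data. Balances were tested by exact permutation, whose smallest p is 0.1. The design assumed log2 or linear values, and no count model was used.

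All members were named, and up to 4 genes per list by smallest p (untested genes by highest level); a pair of genes that this rule takes is not reported here. The members and lists were chosen with earlier results of these data known. The study calls the libraries biological replicates but does not say whether they came from separate cultures or clones, so p-values measure only the spread between libraries. Levels per kilobase used canonical GENCODE transcripts, and coordinates and promoters RefSeq's GRCm38.p6. Alternatives were other filters, pseudocounts, scalings and weights, voom on recovered reads, a replicate block, leaving out each library, and, added after seeing the data, WT 1 alone as control. Same-numbered libraries did not deviate together (correlations -0.22, -0.16 and -0.05). Pairs with different numbers ran from -0.21 (WT 3, ERBB2 KO 2) to 0.26 (WT 1, ERBB2 KO 2).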

Additional observations from a re-analysis of the deposited data

How the results depend on the processing

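Over 16 alternatives, 131 of 143 differences of the members kept their direction and side of the threshold. Part of this agreement was fixed in advance. The other filters and the replicate block leave the difference itself unchanged. In 13 of the 16 alternatives 0 genes in the whole table were called, so no member could pass the threshold there. Counts moved most with array quality weights, which weighted WT 3 (3.05) far above WT 1 (0.418) and ERBB2 KO 1 (0.268). There, 1759 genes were called, 692 higher and 1067 lower, with 2 members among them, Ezh2 (-0.85, limma adjusted p = 0.0273) and Dnmt1 (-0.93, 0.0395), while Eed was at an adjusted p of 0.0576, and 4 of 9 members had an unadjusted p below 0.05. Of all genes, 14.9% were called there and 35.4% had an unadjusted p below 0.05. Leaving out each library gave 0 to 146 genes called, 146 without WT 1 and 30 without ERBB2 KO 1, and 1 to 3 members with an unadjusted p below 0.05, against 5.24% to 21% of all genes (3 members and 16.6% without ERBB2 KO 1). Ezh2 ranged from -0.83 to -0.54 in these fits, Eed from -0.53 to -0.43, Ezh1 from 0.51 to 1.12, Dnmt1 from -0.76 to -0.20 and the balance of Ezh2 to Ezh1 from -1.89 to -1.17. The sign turned for Dnmt3a (-0.41 to 0.29), Dnmt3b (-0.27 to 0.0053), Kdm1a (-0.36 to 0.030) and the balance of Dnmt3a to Dnmt3b (-0.16 to 0.29), and for Dnmt3a with quantile normalization (0.0015). Against WT 1 alone, where that library is assumed to vary like the others, 0 members had an unadjusted p below 0.05 and 6 values turned, Dnmt1 to 0.18, Dnmt3a to 0.63, Dnmt3b to 0.056, Kdm1a to 0.28, the balance of Dnmt1 to Tet1, which restates Dnmt1, to 0.079 and the members transcribed in S phase relative to replication genes to 0.036. The cause was not tested. The replicate block left 0 genes called and 1 member with an unadjusted p below 0.05. With a minimum of 5 CPM, Dnmt3b gave no value. The depth, with 3 reads at up to 0.336 CPM, limits Tet1 and Dnmt3b.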
